A study of Mus musculus with 8 samples.

Results

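The F-box genes of the mouse were followed through the exposure of early embryos to triclocarban (TCC), an antibacterial compound of soaps and other personal care products. A gene was taken as a member when it was annotated as protein-coding and its symbol began with Fbxo, Fbxl or Fbxw followed by a number. Of the 37310 genes in the data, 74 were members: 36 Fbxo, 18 Fbxl and 20 Fbxw genes. Of these, 12 bear symbols from Fbxw13 to Fbxw28, and 11 of the 12 lie side by side on chromosome 9. The other, Fbxw17, lies on chromosome 13. The remaining 62 members are scattered over the genome.

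An F-box protein is the interchangeable part of an SCF ubiquitin ligase. Its F-box domain binds Skp1, which joins it to the scaffold Cul1 and the RING protein Rbx1, and its other end holds the substrate that is to be ubiquitinated. Symbols record that other end: Fbxw proteins carry WD40 repeats, Fbxl proteins leucine-rich repeats, and Fbxo proteins other domains. The Fbxw genes of chromosome 9 are rodent genes known mainly for expression in oocytes. Oocyte transcripts are stored and then cleared while the embryo's own genome becomes active, which in the mouse happens chiefly at the 2-cell stage.

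The samples were 2-cell mouse embryos grown from fertilized eggs in G1 medium. There were 4 libraries of embryos cultured with 6 µM TCC and 4 libraries of control embryos cultured with an equal volume of DMSO, the solvent. The labels also name 2 and 4 µM TCC for the culture experiment, but all 4 TCC libraries are labelled 6 µM. Strain, hour of collection and the number of embryos in a library are not given, and the labels are silent on whether each library stands for its own culture or animal. The p-values therefore measure only how much these libraries vary, and that variation may be technical.

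Levels are FPKM, fragments scaled by transcript length and by library size, which can be compared between genes and are relative to each library's own total. A difference is the mean log2(FPKM + 1) of TCC libraries minus that of controls, with its standard error (SE). The limma test took in every gene that reached 1 FPKM in 4 or more of the 8 libraries, and "rose" or "fell" is written where the Benjamini-Hochberg adjusted p over the 12941 genes tested was under 0.05. In bulk libraries, fewer cells of a type and less RNA per cell cannot be told apart.

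The libraries differed both within the groups and between them. TCC library 2 stood apart for the chromosome 9 Fbxw genes: it was the lowest of the TCC libraries for all 11, at 0.345 to 0.620 times the median of the other 3 (median 0.437), while the tested F-box genes outside Fbxw13 to Fbxw28 had a median ratio of 0.949 and all genes one of 0.883. Controls 1 and 2 differed from controls 3 and 4. Their median ratio was 1.36 for the F-box genes outside Fbxw13 to Fbxw28 and 1.17 for those of chromosome 9. Over all genes tested it was 1.14. Summed FPKM ran from 477882 to 563651 in TCC libraries and from 533941 to 605986 in controls, and 11788 to 11957 genes in TCC libraries reached 1 FPKM, against 12828 to 13541 in controls. Mitochondrially encoded genes held 11.1 to 17.6% of FPKM in TCC libraries and 16.6 to 24.3% in controls. Oocyte markers were all present and summed to 4794 to 5745 FPKM in TCC libraries, against 1824 to 3901 FPKM in controls. The largest parts of that sum were Oosp1, averaging 2838 FPKM with TCC and 1672 FPKM in controls, and Bmp15, at 1098 and 530.1 FPKM. Of the 9 oocyte markers, 7 had a difference above 0 and 2 had one below. The 7 markers of the 2-cell stage in the data summed to 223.1 to 714.3 FPKM in TCC libraries and 385.3 to 548.8 FPKM in controls, and each was above 0 in every TCC library and in at least 3 controls.

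The Fbxw genes of chromosome 9 are close copies of one another, and their starts show it. Their longest protein-coding transcripts were 79.6 to 93.4% identical over 55 pairs (median 84.5%), whereas Fbxw17 matched them at 61.1 to 63.9%. RefSeq promoter sequence on GRCm38.p6, the 250 bases before the gene's RefSeq start, was found for 9 of the 11 and for Fbxw17. The 9 promoters were 84.3 to 97.3% identical over 36 pairs (median 90.2%), and Fbxw17 matched them at 56.8 to 61.6%. Below are the promoters of Fbxw15, which had the largest rise (chr9:109568263-109568512, minus strand), Fbxw24, the most abundant member in TCC libraries (chr9:109626060-109626309, minus strand), Fbxw19, the chromosome 9 gene that did not pass the test (chr9:109495855-109496104, minus strand), and the distant Fbxw17 (chr13:50417614-50417863, plus strand). They are printed 5′ to 3′ on the gene's strand, and capitals mark CAGCTG.
Fbxw15: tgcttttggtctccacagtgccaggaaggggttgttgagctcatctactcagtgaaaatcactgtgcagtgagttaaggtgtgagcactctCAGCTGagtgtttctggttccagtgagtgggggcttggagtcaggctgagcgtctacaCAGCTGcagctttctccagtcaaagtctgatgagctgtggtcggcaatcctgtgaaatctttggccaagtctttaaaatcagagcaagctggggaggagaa
Fbxw24: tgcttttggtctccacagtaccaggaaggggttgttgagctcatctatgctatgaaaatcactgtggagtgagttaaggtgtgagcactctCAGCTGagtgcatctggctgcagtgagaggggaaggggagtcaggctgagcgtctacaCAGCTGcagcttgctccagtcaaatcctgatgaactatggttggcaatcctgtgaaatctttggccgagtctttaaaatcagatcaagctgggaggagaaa
Fbxw19: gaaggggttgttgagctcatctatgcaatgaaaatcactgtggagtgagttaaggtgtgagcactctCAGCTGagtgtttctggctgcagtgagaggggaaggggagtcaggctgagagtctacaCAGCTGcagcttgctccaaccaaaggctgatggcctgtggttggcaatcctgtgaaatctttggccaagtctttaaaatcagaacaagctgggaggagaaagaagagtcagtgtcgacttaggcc
Fbxw17: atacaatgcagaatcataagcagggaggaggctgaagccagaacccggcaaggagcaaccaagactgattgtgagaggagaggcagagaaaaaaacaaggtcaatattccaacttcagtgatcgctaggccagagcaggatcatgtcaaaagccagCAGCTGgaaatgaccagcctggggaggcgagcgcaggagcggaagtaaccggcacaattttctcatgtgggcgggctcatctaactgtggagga

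The letters CAGCTG, a form of the E-box CANNTG, stood in all 9 chromosome 9 promoters found, in 2 copies in 8 of them and 1 copy in the other, and once in that of Fbxw17. They were chosen after these sequences had been seen. The 9 promoters are close copies of one another, so they do not count as 9 separate observations. Both strands were searched, and CAGCTG occurs in 12.8% of the 27025 RefSeq promoters cut to the same length. CANNTG, which overlaps it, was also in all 9, and in 66% of all promoters. Of the letters read by homeobox factors, TAATTA (4.90% of all promoters) and TAATTG (7.34%) were in none of the 9, and TAATCC (6.38%) was in that of Fbxw21. TATAAA (13%) was in none of the 9, and CCAAT (34.5%) was in that of Fbxw16. Fbxw19 shares the E-box letters with the genes that rose. A match of letters is a description and not evidence of binding.

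All 12 genes from Fbxw13 to Fbxw28 passed the filter, and 10 of them rose with TCC, where 42.1% of all genes tested passed the test, 11.3% upward and 30.8% downward. None of the 12 fell, and all 12 differences were above 0. Their median difference was 1.72, against -0.19 over all genes tested and -0.21 over the 45 other members tested, so that it lay 1.91 above the median of all genes. The number that rose was 12 without TCC library 2, 11 without controls 1 and 2 and 10 without controls 3 and 4. Over all genes 1466 rose and 3981 fell, or 2637 and 3187 under median-of-ratios scaling. In the same 10 genes every TCC library lay above every control, which held for 10.2% of all genes tested. All 10 are on chromosome 9. Each of them also passed the test in all 22 alternative analyses, with a highest adjusted p of 0.0453, for Fbxw16 without controls 3 and 4 (limma).

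Fbxw15 had the largest difference. It was at 465.1, 196.1, 530.4 and 440.0 FPKM in TCC libraries 1 to 4, and at 82.7, 60.9, 44.1 and 48.5 FPKM in controls 1 to 4. The lowest TCC library was above the highest control by a wide margin, and the TCC mean was 6.91 times the control mean, at 407.9 ± 146.3 FPKM against 59.0 ± 17.3 FPKM (SD, n = 4 each). The difference was 2.72 (SE 0.35, limma adjusted p 0.000166).

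Fbxw24 and Fbxw28 were the most abundant of the 12. Fbxw24 reached 1140, 510.9, 1361 and 1267 FPKM in TCC libraries and 280.0, 238.0, 270.7 and 258.9 FPKM in controls, a difference of 1.93 (SE 0.32, limma adjusted p 0.00071). Fbxw28 was at 592.7, 240.7, 774.6 and 698.3 FPKM in TCC libraries and 119.6, 119.0, 146.4 and 134.7 FPKM in controls, a difference of 2.02 (SE 0.35, limma adjusted p 0.000965). In both genes TCC library 2 held less than the other TCC libraries and still lay above all controls. By mean FPKM, Fbxw24 stood at rank 53 among all genes in TCC libraries and at rank 232 in controls. Among F-box genes alone, Fbxw24, Fbxw28 and Fbxw15 were ranks 1, 2 and 3 in TCC libraries, and ranks 3, 6 and 11 in controls.

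Fbxw20 and Fbxw22 also rose by more than 2 log2 units. Fbxw20 was at 170.6, 59.6, 172.9 and 160.6 FPKM in TCC libraries, against 28.8, 25.7, 23.4 and 22.3 FPKM in controls, a difference of 2.33 (SE 0.35, limma adjusted p 0.000357). Fbxw22 was at 234.4, 112.5, 182.7 and 157.2 FPKM in TCC libraries, against 53.0, 56.7, 29.3 and 28.8 FPKM in controls, a difference of 2.03 (SE 0.32, limma adjusted p 0.000549). Controls 1 and 2 exceeded controls 3 and 4 in Fbxw22 by 1.89 times, the widest such gap on chromosome 9, and its difference was 1.58 without controls 3 and 4. The groups did not overlap in either gene.

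The remaining genes that rose did so by 1.03 to 1.81. Fbxw26 averaged 68.0 ± 23.9 FPKM in TCC libraries and 17.8 ± 3.75 FPKM in controls (difference 1.81, SE 0.32), and Fbxw18 averaged 202.3 ± 78.6 FPKM in TCC libraries and 62.2 ± 16.8 FPKM in controls (difference 1.62, SE 0.35; SD, n = 4 each). Fbxw21 was at 68.1, 38.3, 62.6 and 61.7 FPKM in TCC libraries and 25.6, 24.3, 25.7 and 20.8 FPKM in controls. Its difference was 1.20 (SE 0.26, limma adjusted p 0.0031). Fbxw16 and Fbxw13 had the smallest differences of the 10. In these and in Fbxw18 the lowest TCC library was only a little above the highest control. For Fbxw18 these were TCC library 2 at 97.4 FPKM and control 1 at 83.5 FPKM. Without controls 3 and 4 the adjusted p of Fbxw18 was 0.042 (limma). Fbxw16 was at 176.2, 83.2, 175.0 and 168.0 FPKM in TCC libraries and 69.8, 65.8, 72.2 and 67.1 FPKM in controls (difference 1.06, SE 0.28, limma adjusted p 0.011). Fbxw13, the least abundant of the cluster, was at 22.6, 12.9, 20.8 and 16.4 FPKM in TCC libraries and 10.2, 7.65, 8.36 and 6.86 FPKM in controls (difference 1.03, SE 0.26, limma adjusted p 0.00832).

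Fbxw19 and Fbxw17 did not pass the test. Fbxw19 was at 160.5, 79.2, 137.6 and 128.2 FPKM in TCC libraries and 97.0, 97.0, 95.0 and 93.2 FPKM in controls. Only TCC library 2 lay below the controls, and the difference was 0.35 (SE 0.26, limma adjusted p 0.306), or 0.56 with an adjusted p of 0.0342 without that library. In controls Fbxw19 was the third most abundant gene of the cluster, after Fbxw24 and Fbxw28. Fbxw17 was near the filter, at 2.64, 0.650, 2.40 and 2.02 FPKM in TCC libraries and 1.61, 1.25, 0.315 and 0.328 FPKM in controls, and its groups overlapped. Its difference was 0.65 (SE 0.32, limma adjusted p 0.127), and it passed the threshold in 5 of 21 alternatives.

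**Figure D1:**
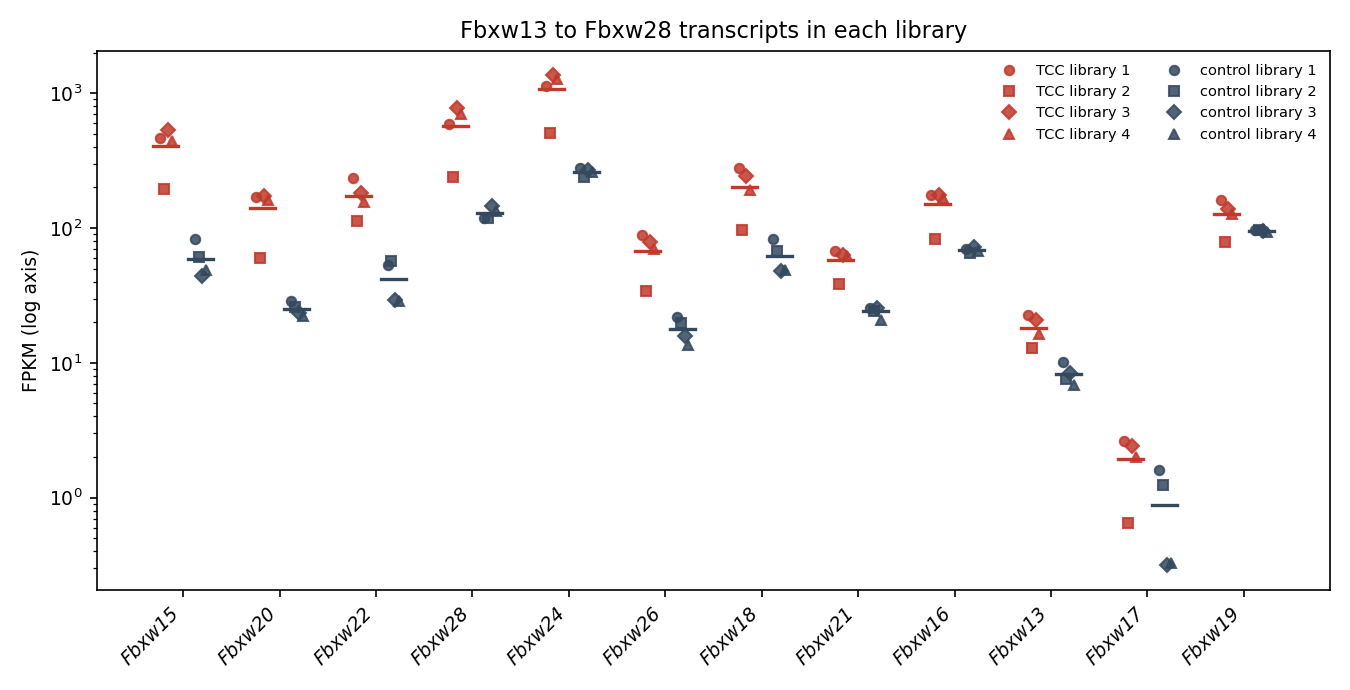
FPKM (log axis) of the 12 genes from Fbxw13 to Fbxw28, in order of their log2 difference, with 1 marker for each library, TCC libraries on the left of each pair and controls on the right, and a horizontal line at the group mean. In 10 genes all 4 TCC libraries lie above all 4 controls, and the square of TCC library 2 is the lowest TCC marker in every gene.

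Summed over the 11 genes of chromosome 9, the level was 3396, 1465, 3740 and 3358 FPKM in TCC libraries 1 to 4, and 872.2, 782.8, 779.3 and 744.0 FPKM in controls 1 to 4. The 63 F-box genes outside the cluster summed to 1203 ± 73.1 FPKM in TCC libraries and 1690 ± 79.5 FPKM in controls (SD, n = 4 each). Much of that gap was Fbxo15, with a mean of 61.4 FPKM in TCC libraries and 370.8 FPKM in controls. In Fbxo15 controls 3 and 4 lay far above controls 1 and 2. The cluster thus made up 69.6 ± 9.47% of F-box FPKM in TCC libraries and 32.0 ± 1.68% in controls. Of all FPKM it made up 0.548 ± 0.163% in TCC libraries and 0.141 ± 0.0175% in controls. TCC library 2 had the smallest cluster sum of the TCC libraries and the controls varied little.

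**Figure D2:**
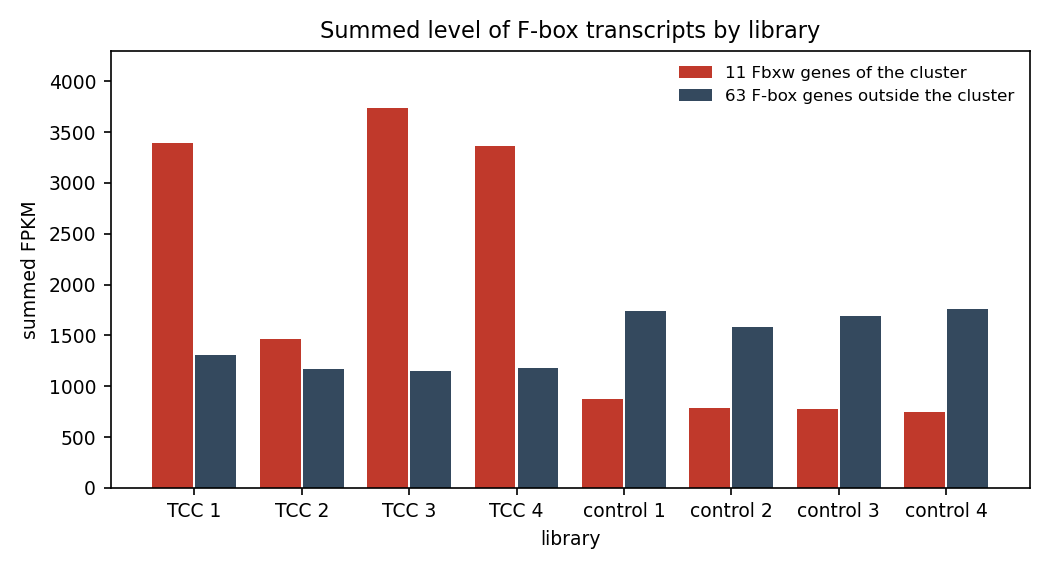
Summed FPKM by library, with 1 pair of bars for each of the 4 TCC libraries and then each of the 4 controls: the 11 Fbxw genes of chromosome 9 and the 63 F-box genes outside the cluster. The cluster bar is the taller of the pair in every TCC library and the shorter in every control.

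Oocyte markers of the same libraries moved in both directions. Of the 9 markers, 4 rose with TCC (Bmp15, Npm2, Oosp1 and Nlrp5), Zp3 fell and 4 did not pass the test, with a median difference of 0.81, where 11.3% of all genes rose and 30.8% fell. Npm2 and Nlrp5 passed in all 22 alternatives, while Bmp15 passed in 14 and Oosp1 in 13, both failing without control 3, without control 4 and without TCC library 1 or 3, among others. Of the 7 markers of the 2-cell stage, 4 rose and 2 fell. Both falls were without overlap between the groups. Eif1a differed by -2.97 (limma adjusted p 0.000109) and Zfp352 by -1.14 (limma adjusted p 0.0181). Usp17la rose without overlap, by 1.29 (limma adjusted p 0.0107). Among those that rose, Duxf3 passed the filter through the TCC libraries alone and so had to lie higher with TCC. The groups overlapped in Zscan4c and Zscan4f, which also rose. Npm2, a histone chaperone stored in the egg, had the largest rise of the 9 oocyte markers, 1.54 (limma adjusted p 0.00341). It was at 666.4 ± 96.0 FPKM in TCC libraries and 245.3 ± 110.1 FPKM in controls (SD, n = 4 each). These 9 were listed as markers and the 4 that rose were picked for naming after their values were seen. Markers of cumulus or granulosa cells summed to 9.02 to 17.6 FPKM in TCC libraries and 4.65 to 8.99 FPKM in controls. Amh and Inha were at 0 throughout, and 3 of the 8 were tested. Cyp19a1 rose, at 8.33 ± 2.44 FPKM in TCC libraries and 2.34 ± 1.52 FPKM in controls (SD, n = 4 each, limma adjusted p 0.00323). Fshr rose with overlapping groups (limma adjusted p 0.0282). Tnfaip6 fell, but it passed the filter through the controls alone and so had to lie lower with TCC. Sperm markers summed to 7.77 to 12.5 FPKM in TCC libraries and 1.12 to 6.46 FPKM in controls. Most of that was Prm2, the only 1 of the 6 sperm markers tested. It averaged 7.73 ± 0.851 FPKM in TCC libraries and 2.24 ± 1.85 FPKM in controls and rose (SD, n = 4 each, limma adjusted p 0.00307). Whether these markers and the Fbxw genes moved for a shared reason was not tested.

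The cluster spans chr9:109139447-109746089 on GRCm38, the assembly also called mm10, a stretch of 606.6 kb by GENCODE M21. All 11 genes are on the minus strand. Among the protein-coding genes in the data, none other than F-box genes lies inside the stretch. The data hold 26 protein-coding neighbours within 500 kb, of which 14 were tested. Of these, 2 rose (Ip6k2 and Slc26a6) and 5 fell, near the 11.3% and 30.8% over all genes, with a median difference of -0.32. Neither rise passed without controls 3 and 4, and that of Slc26a6 passed in 13 of 22 alternatives. The strongest calls among the neighbours were falls. Uqcrc1, a subunit of mitochondrial complex III, differed by -2.27 (limma adjusted p 0.000192), the ubiquitin ligase gene Arih2 by -2.09 (limma adjusted p 0.000232), and the chromatin remodelling gene Smarcc1 by -1.77 (limma adjusted p 0.00404).

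**Figure D3:**
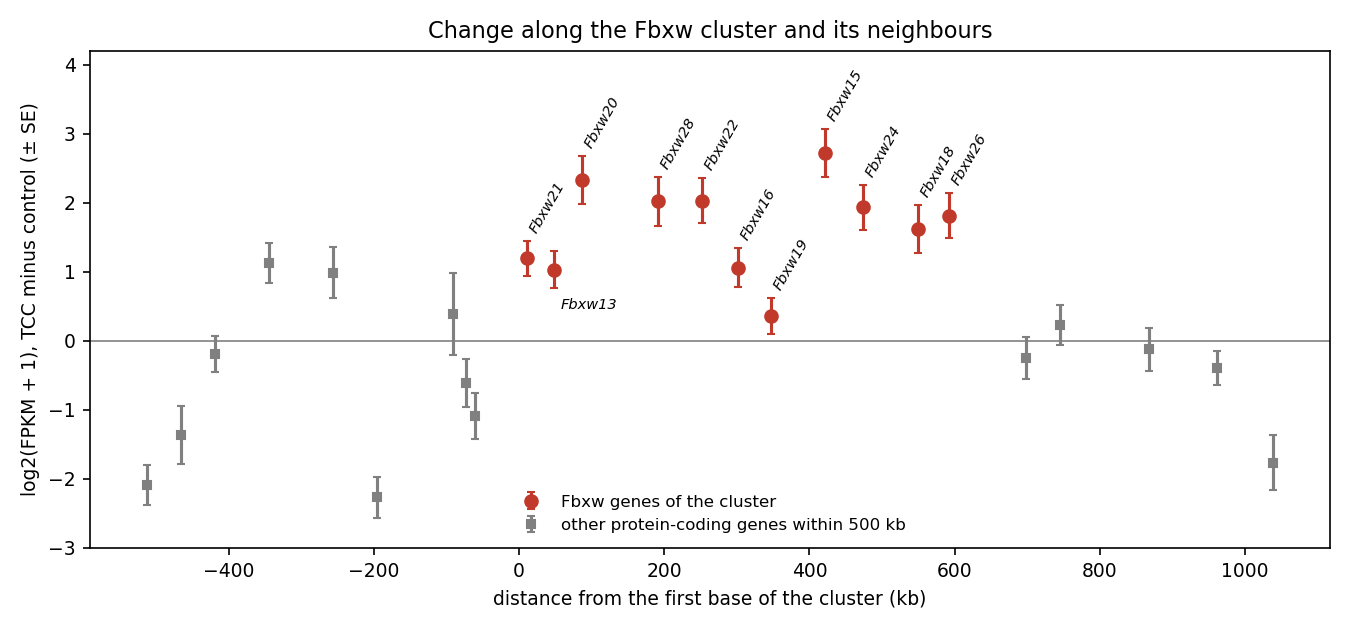
Difference in log2(FPKM + 1), TCC minus control, with bars of 1 SE, against the distance in kb from the first base of the cluster, for the 11 Fbxw genes and the 14 tested protein-coding neighbours within 500 kb. The Fbxw genes all lie above 0, from 0.35 to 2.72, while the flanking genes lie on both sides of 0, from -2.27 to 1.12.

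Close copies share reads, and how the authors' counting placed such reads is not given in the sources used here. Of the 150-base windows in the transcript of Fbxw28, 36% also occur in that of Fbxw14, a gene not analysed here. For Fbxw16 the share was 4.90%, with Gm42494, and for Fbxw15 it was 1.49%, with Gm42756. The other 8 genes of the cluster had no window of that length in common with the transcript of another gene. The level of Fbxw28 is uncertain on this account. Only exact matches to windows of each gene's longest protein-coding transcript were counted. Reads placed with mismatches were not examined, so the levels of the other genes are not shown to be free of shared reads.

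Outside Fbxw13 to Fbxw28, the F-box genes moved both ways. Of the 45 tested, 5 rose and 15 fell, and 25 did not pass the test, near the shares of 11.3% and 30.8% over all genes. Leaving out controls 1 and 2 gave 10 that rose, and leaving out controls 3 and 4 gave 3. Under median-of-ratios scaling 7 rose and 13 fell, and under quantile normalization 8 rose and 13 fell. By subfamily, 5 of 26 Fbxo genes rose and 8 fell, 3 of 12 Fbxl genes fell and none rose, and 4 of 7 Fbxw genes fell and none rose (limma). At an unadjusted p under 0.05, the number higher was also 0 in both the Fbxl and these Fbxw genes. Differences among the 45 ran from -3.22 for Fbxo6 to 1.42 for Fbxo28. A further 17 members were not tested, of which 11 stayed below 1 FPKM in every library, and Fbxl15 and Fbxo27 passed the filter through the controls alone and so had to lie lower with TCC. Without these, 13 of 43 genes fell, among them 2 of 11 Fbxl genes. All TCC libraries lay above all controls in 5 of the 45, and below them in 17, where 30.0% of all genes tested lay below.

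**Figure D4:**
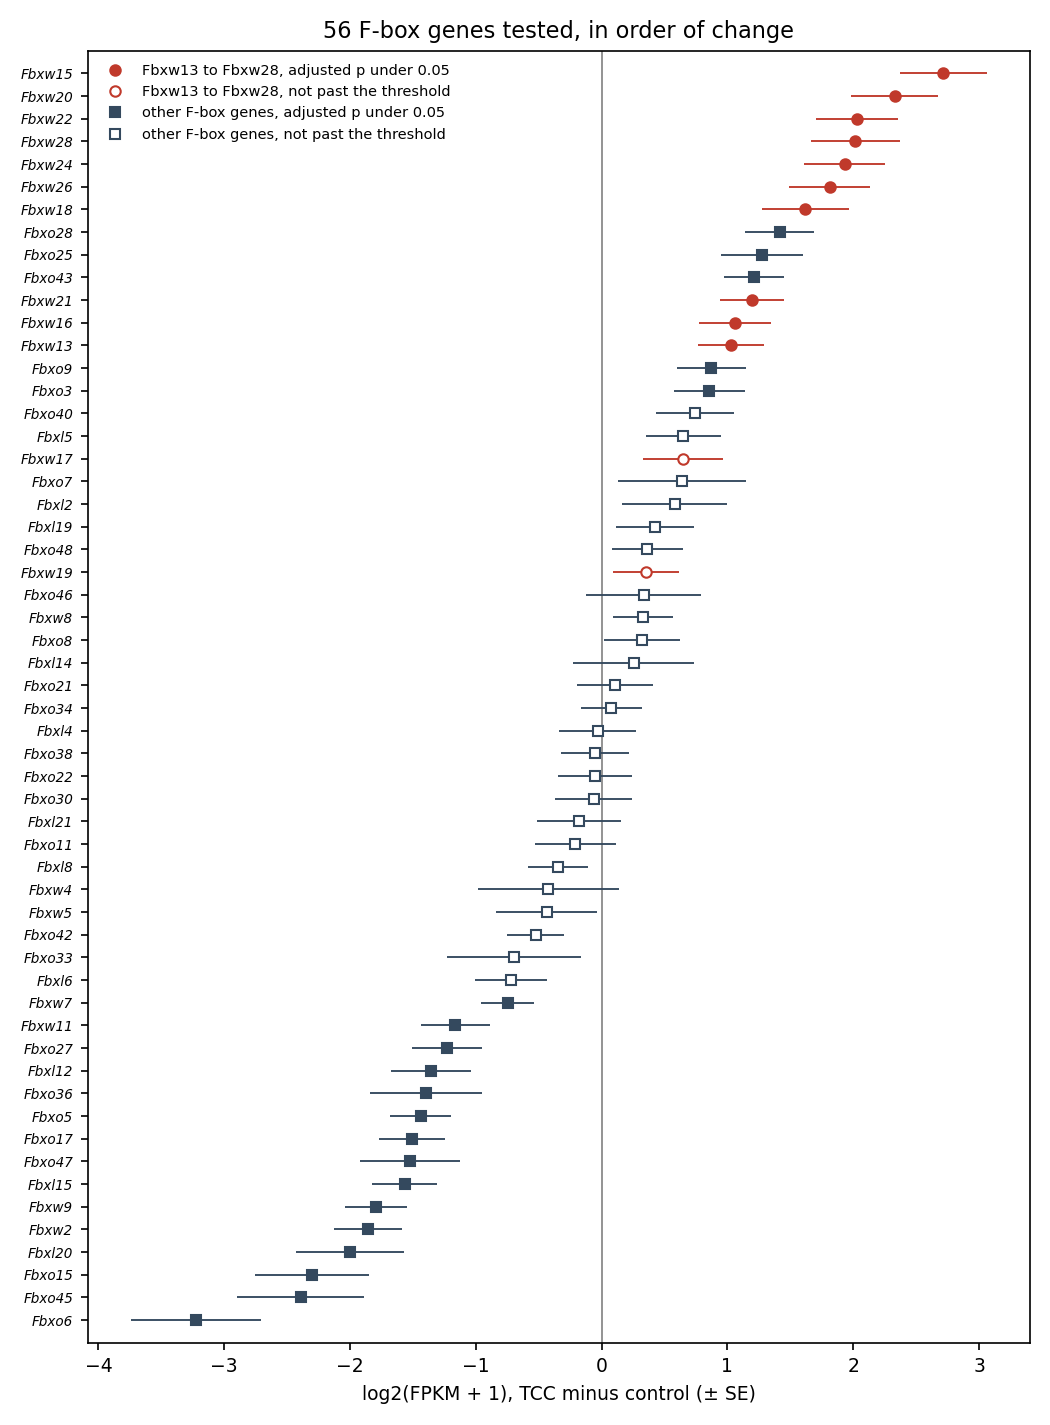
Difference in log2(FPKM + 1), TCC minus control, with bars of 1 SE, for 56 of the 57 F-box genes tested, in order, with filled markers where the adjusted p was under 0.05. The 10 filled circles of the Fbxw13 to Fbxw28 group lie between 1.03 and 2.72, and the largest falls are Fbxo6, Fbxo45 and Fbxo15.

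A pair of members inhibits the anaphase-promoting complex, the ligase that ends mitosis and meiosis, and these moved in opposite directions. Fbxo43 (Emi2), which holds the egg at metaphase of meiosis II until fertilization, rose: it was at 56.2, 62.5, 52.5 and 54.8 FPKM in TCC libraries and 25.7, 30.2, 18.5 and 22.3 FPKM in controls (difference 1.21, SE 0.24, limma adjusted p 0.00197). Fbxo5 (Emi1), which acts in S and G2 phase of mitotic cycles, fell: it was at 54.8, 46.2, 43.0 and 33.8 FPKM in TCC libraries and 142.4, 122.2, 106.1 and 113.9 FPKM in controls (difference -1.44, SE 0.24, limma adjusted p 0.000764). Neither gene's groups overlapped.

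The other members that rose were Fbxo genes. Fbxo28 was at 40.0, 38, 32.3 and 42.3 FPKM in TCC libraries and 17.6, 18.0, 9.12 and 11.7 FPKM in controls (difference 1.42, SE 0.27, limma adjusted p 0.0017). Fbxo25 averaged 7.79 ± 2.78 FPKM in TCC libraries and 2.57 ± 0.990 FPKM in controls (difference 1.28; SD, n = 4 each), and its adjusted p was 0.0878 without controls 3 and 4. Fbxo9 differed by 0.87 and Fbxo3, known for ubiquitination of Fbxl2, by 0.86. The calls of both were lost in several alternatives: Fbxo9 passed in 16 of 22, failing without control 2 or 3, without TCC library 1, 3 or 4 and without controls 1 and 2 together. Fbxo3 passed in 17 of 22, failing with no filter, without control 3, without TCC library 3 or 4 and without controls 3 and 4 together.

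Fbxo15, known as a target of Oct4 in embryonic stem cells and as a reporter of reprogramming, had the highest mean of the F-box genes in controls and was at rank 15 in TCC libraries. By library it was at rank 1 in controls 3 and 4 and at rank 4 in controls 1 and 2, after Fbxw4, Fbxo8 and Fbxw24. It was at 57.0, 50.6, 71.3 and 66.8 FPKM in TCC libraries and 153.2, 163.4, 576.4 and 590.2 FPKM in controls. Controls 3 and 4 were far above controls 1 and 2, yet all TCC libraries lay below every control. The difference was -2.30 (SE 0.45, limma adjusted p 0.0019), -3.24 without controls 1 and 2 and -1.36 without controls 3 and 4.

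Fbxo6 and Fbxo45 fell with the same split among controls. Fbxo6, which recognizes glycoproteins bound for degradation from the endoplasmic reticulum, was at 2.52, 0.413, 2.79 and 3.21 FPKM in TCC libraries and 12.4, 15.0, 51.2 and 53.3 FPKM in controls. Its difference was -3.22 (SE 0.52, limma adjusted p 0.000585), -4.16 without controls 1 and 2 and -2.29 without controls 3 and 4. Fbxo45, a partner of the neuronal ligase Phr1 in the mouse, averaged 1.88 ± 1.19 FPKM in TCC libraries and 16.6 ± 11.4 FPKM in controls (SD, n = 4 each). Its difference of -2.39 (limma adjusted p 0.00286) was -1.47 without controls 3 and 4. Fbxo47, a meiotic gene of the mouse testis, differed by -1.52 (limma adjusted p 0.00937) and did not pass without controls 3 and 4, at -0.84 (adjusted p 0.0875).

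Of the Fbxw genes that fell, Fbxw2 and Fbxw9 had the largest differences. Fbxw2 was at 6.42, 4.74, 4.69 and 7.0 FPKM in TCC libraries and 21, 19.0, 20.9 and 33.5 FPKM in controls (difference -1.86, SE 0.27, limma adjusted p 0.00031). Fbxw9 was at 2.14, 3.42, 3.02 and 3.83 FPKM in TCC libraries and 12.5, 14.4, 11.3 and 14.1 FPKM in controls (difference -1.79, SE 0.25, limma adjusted p 0.000231). Both fell without overlap. Fbxw11, one of the beta-TrCP proteins that direct beta-catenin and IκB to degradation, averaged 9.92 ± 3.79 FPKM in TCC libraries and 22.5 ± 1.39 FPKM in controls (SD, n = 4 each). It fell by 1.16 on the log2 scale (limma adjusted p 0.00515). Fbxw7, the substrate receptor for cyclin E and Myc, was low, at 0.839, 1.44, 1.13 and 0.750 FPKM in TCC libraries and 2.19, 2.21, 2.84 and 2.36 FPKM in controls. Its difference of -0.75 (limma adjusted p 0.0138) did not pass under median-of-ratios scaling (adjusted p 0.0568), under quantile normalization (0.159), without TCC library 4 or without controls 3 and 4.

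Among Fbxl genes, Fbxl20, known in the mouse for degradation of a synaptic protein, was at 11.7, 1.78, 5.88 and 10.4 FPKM in TCC libraries and 25.8, 23.2, 31.0 and 32.7 FPKM in controls (difference -2.0, SE 0.43, limma adjusted p 0.00321). Fbxl15, which entered the test through the controls alone, was at 0.166 to 0.780 FPKM in TCC libraries, against 2.24 to 4.89 FPKM in controls (difference -1.57). Fbxo17, of the same glycoprotein-binding family as Fbxo6, differed by -1.51 (limma adjusted p 0.000941). Fbxl20 and Fbxo17 fell without overlap between the groups.

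Several members with well-known substrates did not pass the test. Fbxl5, the iron sensor that targets Irp2, averaged 79.3 ± 14.2 FPKM in TCC libraries and 52.1 ± 18.5 FPKM in controls (difference 0.65, limma adjusted p 0.1). It passed in 4 of 22 alternatives, among them median-of-ratios scaling (0.95, adjusted p 0.0128, limma) and leaving out control 1 alone, and its difference ran from 0.22 to 1.08 over the 22. Fbxl21, which binds the cryptochromes of the circadian clock, differed by -0.18. Fbxo7, a partner of Parkin, differed by 0.64, and Fbxo11, a ligase for Bcl6, by -0.21. Fbxo30, Fbxo34 and Fbxw5 differed by -0.06, 0.08 and -0.44. The signs of Fbxl21, Fbxo11, Fbxo30, Fbxo34 and Fbxw5 changed under at least 1 other setting. Just outside the threshold were Fbxl6 (adjusted p 0.0654), Fbxo40 (0.0738) and Fbxo42 (0.0862, limma), and just inside it Fbxo3 (0.0299) and Fbxo36 (0.0259).

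**Figure D5:**
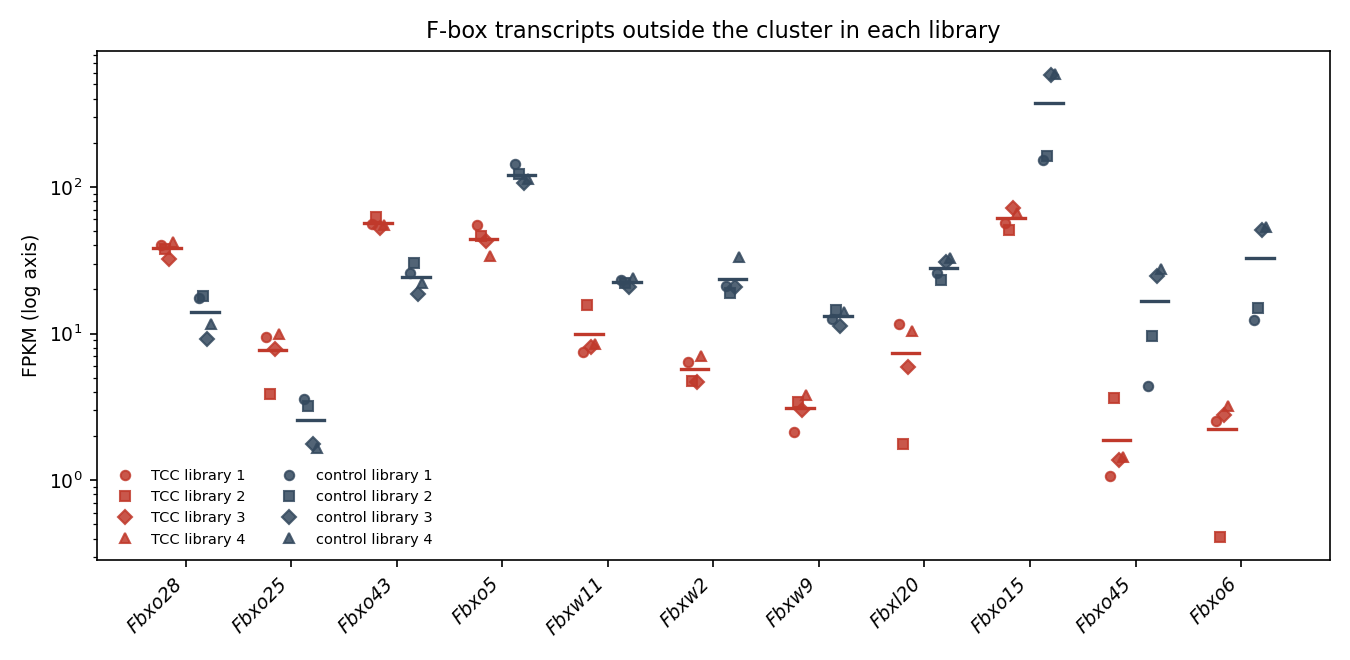
FPKM (log axis) of 11 F-box genes outside Fbxw13 to Fbxw28, with 1 marker for each library, TCC libraries on the left of each pair and controls on the right, and a horizontal line at the group mean. Fbxo28, Fbxo25 and Fbxo43 lie higher with TCC and the other 8 lower, and in Fbxo15, Fbxo45 and Fbxo6 controls 3 and 4 lie far above controls 1 and 2.

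The partners of F-box proteins also moved both ways. Of 36 genes for SCF subunits, their E2 enzymes and the neddylation machinery that switches cullins on and off, 32 were tested: 10 rose and 6 fell, where 11.3% of all genes rose and 30.8% fell, with a median difference of 0.37. The core pieces that were tested were abundant. Skp1a, the adaptor that F-box proteins bind, averaged 446.9 ± 48.9 FPKM in TCC libraries and 194.7 ± 94.7 FPKM in controls and rose by 1.32 on the log2 scale (limma adjusted p 0.00839), though not without controls 3 and 4 (adjusted p 0.0554). Rbx1 averaged 584.3 ± 161.7 FPKM in TCC libraries and 278.7 ± 53.6 FPKM in controls and rose by 1.05 (limma adjusted p 0.0103). Cul1 averaged 748.7 ± 143.0 FPKM in TCC libraries and 475.5 ± 107.8 FPKM in controls and did not pass (difference 0.66, limma adjusted p 0.066; SD, n = 4 each), but did in 5 of 22 alternatives, among them leaving out control 1 or TCC library 2. These core genes were chosen for naming after their values were seen.

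The smallest adjusted p of that list belonged to Nae1, Cops6 and Rnf7. Nae1, a subunit of the enzyme that activates Nedd8, averaged 333.0 ± 30.2 FPKM in TCC libraries and 92.1 ± 18.8 FPKM in controls (difference 1.86, limma adjusted p 0.000174). Cops6, a subunit of the signalosome that removes Nedd8 from cullins, differed by -2.54 (limma adjusted p 0.000185). Rnf7, the RING protein that pairs with Cul5, averaged 17.3 ± 6.19 FPKM in TCC libraries and 177.1 ± 111.0 FPKM in controls (difference -3.10, limma adjusted p 0.000352; SD, n = 4 each). The number that rose depended on the controls and the scaling: it was 3 without controls 3 and 4, and 17, against 4 that fell, under median-of-ratios scaling.

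Of 9 F-box genes that carry other symbols, 6 were tested, and 2 rose and 2 fell, where 11.3% of all genes rose and 30.8% fell. Kdm2b is a histone demethylase that binds CpG islands and also has an F-box. It averaged 157.7 ± 23.7 FPKM in TCC libraries and 40.0 ± 11.1 FPKM in controls (SD, n = 4 each). Its difference was 1.98 (limma adjusted p 0.000209). Ccnf, cyclin F, differed by -1.65 (limma adjusted p 0.000352), and Skp2, the receptor for the Cdk inhibitor p27, by -1.41 (limma adjusted p 0.00131). Btrc, the other beta-TrCP gene, rose by 0.77 (limma adjusted p 0.0298). That call was lost on leaving out any of 6 single libraries (control 1, 2 or 4, or TCC library 1, 3 or 4), and it passed in 15 of 22 alternatives. Btrc was named after its value was seen.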

How the data were processed

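The data were polyadenylated RNA of 4 TCC and 4 control libraries, read as pairs of 150 bases. The labels' protocols describe more than 1 library preparation without saying which was used. The authors deposited FPKM for 37310 genes in 1 table. STAR, StringTie, featureCounts, DESeq2 1.30.1 and mm10 appear, with no role, in the submitters' processing notes. Not given in the sources used here are the tool behind the FPKM, its annotation, strand setting and treatment of shared reads. Counts were not recovered, since only 6.74 to 8.44% of low values in a library lay within 0.02 of a whole fragment. Depth is thus unknown and no count test was run.

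Symbols and coordinates came from GENCODE M21 (87.4% of identifiers matched, GRCm38), which holds 77 members. Of these, Fbxw14, Fbxw25 and Fbxw27 are not analysed here. Log2(FPKM + 1) was fitted with limma 3.58.1 (lmFit, eBayes with trend) in R 4.3.3, with treatment alone in the model, for genes that reached 1 FPKM in 4 or more libraries. Differences of low genes are understated on this scale. The step was tested on simulated data. Identity was taken from global alignment (Biopython 1.88). Tables used Python 3.11.15, pandas 2.3.3 and numpy 2.4.6, and figures matplotlib 3.10.9.

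Members, lists, markers and the naming rule were chosen with earlier results of these data known. The text names every gene from Fbxw13 to Fbxw28. Of the other members past the threshold without overlap, it names up to 10 with the greatest rise and up to 10 with the greatest fall. It also names 15 members whatever their values, and the 3 genes with the smallest adjusted p of each other list. A gene that this rule takes is not reported here. Markers, the core SCF genes, Btrc, Ip6k2, Slc26a6 and the genes nearest the threshold were named after their values were seen. Alternatives were other pseudocounts, filters and scalings, library weights, the replicate number as a block, eBayes without trend or robust, and leaving out each library or the control pairs 1 and 2 or 3 and 4.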

Additional observations from a re-analysis of the deposited data

Results flagged for a closer look

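In the 4 libraries of a group, a library is given here where its gap to the nearest other library, divided by the range, exceeded Dixon's critical value. Among 90 groups of 4 (45 named genes in TCC and in control libraries), 7 were past it, and chance gives about 1 in 20, or 4.5. Of the 7, 5 were at TCC library 2. It was low in Fbxw20, at 59.6 FPKM against 160.6 to 172.9 FPKM in the other TCC libraries, and in Fbxw16, at 83.2 FPKM against 168.0 to 176.2 FPKM. Outside the cluster TCC library 2 was low in Fbxo47, at 2.47 FPKM against 5.29 to 5.73 FPKM, and high in Fbxo45, at 3.65 FPKM against 1.07 to 1.44 FPKM, and in Fbxw11, at 15.6 FPKM against 7.44 to 8.48 FPKM. Among controls, library 3 was low in Fbxo3, at 1.89 FPKM against 3.86 to 4.25 FPKM in the other controls, and library 4 was high in Fbxw2, at 33.5 FPKM against 19.0 to 21 FPKM. Without the library in question each of these genes kept the direction of its difference, and Fbxo3 no longer passed the test (adjusted p 0.0919, limma).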

How the results depend on the processing

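The 10 Fbxw genes that rose did so under all 22 alternatives. The count of the 12 that rose was 10 to 12 with any 1 library left out, and was 12 without TCC library 2. Of 982 values of the 45 named genes under an alternative, 939 kept their direction and side of the threshold, 17 lost and 11 gained a call and 15 changed sign, all in genes that did not pass the test in the main analysis. The causes were not tested.

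The median of all genes was -0.19, 0.06 under median-of-ratios scaling and 0.13 under quantile normalization. The number of other F-box genes that rose (5) was 8 under quantile normalization, 10 without controls 1 and 2, 3 without controls 3 and 4, and 3 to 7 with 1 library left out. Over all genes 1466 rose: 2637 under median-of-ratios scaling, 2803 under quantile normalization, 2838 without controls 1 and 2, 695 without controls 3 and 4, and 953 to 1860 with 1 library left out. Over all genes 3981 fell, 2492 under the stricter filter, which tests fewer genes, and 3469 to 4180 with 1 library left out. Of the SCF and neddylation list 10 rose, 17 under median-of-ratios scaling, 3 without controls 3 and 4, and 7 to 12 with 1 library left out. Of the F-box genes under other symbols 2 rose, 1 without controls 1 and 2, and 1 to 2 with 1 library left out, and 2 to 3 fell. Of the neighbours 2 rose, 1 with a pseudocount of 0.1, without a filter or scaled without mitochondrially encoded genes, 0 without controls 3 and 4, and 1 to 2 with 1 library left out. Of the neighbours 5 fell, 3 under median-of-ratios scaling or without controls 3 and 4, and 3 to 5 with 1 library left out.

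Sign changes were these. Fbxo30 was 0.22 under median-of-ratios scaling, 0.32 under quantile normalization, 0.19 without control 1 and 0.38 without controls 1 and 2, and -0.25 to 0.19 with 1 library left out. Fbxo34 was -0.063 with library weights, -0.0009 without control 1, -0.0633 without TCC library 2 and -0.0497 without controls 1 and 2, and -0.0633 to 0.158 with 1 library left out. Fbxw5 was 0.31 without controls 1 and 2, and Fbxo11 was 0.10 under median-of-ratios scaling. Fbxl21 was 0.020 under median-of-ratios scaling, 0.18 under quantile normalization, 0.012 with library weights, 0.12 without TCC library 2 and 0.15 without controls 1 and 2, and -0.39 to 0.12 with 1 library left out.

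Deviations of same-numbered TCC and control libraries correlated at 0.338, 0.053, 0.095 and 0.104 (numbers 1 to 4). TCC libraries 1, 3 and 4 correlated best with the control of the same number, and TCC library 2 with control 4 (0.082). Whether the numbers pair the libraries is not settled by these values. With the replicate number as a block, 16 F-box genes rose and 15 fell, 10 of Fbxw13 to Fbxw28 rose, and 1544 of all genes rose and 4061 fell. Depth is unknown, so the limit it sets cannot be given.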
